A study of Mus musculus with 24 samples.

Results

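Whole hearts of adult TRα1+/m mice born to T3-treated mothers were compared with hearts of wild-type mice born to mothers given the same hormone. The 12 hearts, 6 per genotype, were taken from 24 profiled in all and were chosen by their titles, which name genotype and maternal treatment. TRα1+/m mice carry 1 mutant copy of Thra in every cell, and the mutant receptor TRα1 binds T3 less tightly than the normal one. Both groups were males of the C57/BL6NCr strain, 4 to 5 months old and kept at 22 °C. Their mothers drank 0.5 mg/L T3 with 0.01% bovine serum albumin, starting on embryonic day 12.5 and, by the labels, stopping on day 18.5, and the offspring themselves were never treated. The other 12 hearts, 6 TRα1+/m and 6 wild-type, came from mothers given the albumin solution alone and serve to show where the genotype difference after maternal T3 departs from that without it. Each array, a Clariom S mouse microarray, holds RNA of 1 heart. Dams and litters are not given, so p-values measure the spread between these mice and mice of 1 litter may be among them. The question was how far the 2 genotypes still differ in the adult heart once both have met extra T3 before birth.

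Thyroid hormone receptors are transcription factors that sit on DNA with and without ligand, repressing many target genes in the absence of T3 and activating them when T3 binds. In the mouse heart TRα1 is the main receptor. T3 shifts myosin from the slow β to the fast α heavy chain, and it raises pacemaker channel expression and calcium reuptake into the sarcoplasmic reticulum.

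The cardiac labels fitted the marker genes. The 9 cardiomyocyte markers had mean log2 values of 15.62 to 19.65 in TRα1+/m T3 and 16.02 to 19.66 in wild-type T3 hearts, with Myh6 the highest, whereas the lung and thymus genes Sftpc, Scgb1a1 and Dntt had group means between 3.29 and 4.84. By heart, Scgb1a1 ran from 2.61 to 3.68 in TRα1+/m T3 and from 2.72 to 8.37 in wild-type T3 hearts. This lung gene was therefore not low in every heart. Atrial content varied within both groups, as Bmp10, an atrial growth factor, ran from 4.07 to 14.21 in TRα1+/m T3 and from 3.45 to 15.66 in wild-type T3 hearts. In whole hearts, fewer cells of a type and less RNA per cell cannot be told apart. The 12 arrays held 18505 to 19229 genes above a log2 value of 4. That number averaged 18710.5 in TRα1+/m T3 and 18779.7 in wild-type T3 hearts (two-sided exact permutation p = 0.613). The first principal component, 17.5% of the variance, set 5 of the 24 arrays apart. Of these, 2 were TRα1+/m T3 hearts (label numbers 16 and 17, scores 51.01 and 55.71), 2 were wild-type T3 hearts (14 and 15, scores 41.34 and 37.73) and 1 was a TRα1+/m heart without T3. The score did not part the genotypes after maternal T3 (exact permutation p = 0.574). Label numbers fall in 2 ranges, below 20 (2 TRα1+/m T3 and 3 wild-type T3 hearts) and above 30 (4 TRα1+/m T3 and 3 wild-type T3 hearts), without saying what they stand for. All 5 arrays set apart lie in the lower range. Fits without them and fits above 30 alone therefore use the same TRα1+/m T3 hearts and are not separate checks. Of the T3 hearts, they differ by wild-type T3 heart 13 alone.

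Thra itself was higher in TRα1+/m hearts. Its log2 values were 12.18 at the lowest, 12.4 at the median and 12.65 at the highest in TRα1+/m T3 hearts, against 11.58, 11.69 and 11.83 in wild-type T3 hearts. Every TRα1+/m T3 heart lay above every wild-type T3 heart. The log2 change was 0.73 (standard error 0.13, limma adjusted p = 0.0011). Of the 50 tested genes that lie closest to Thra on chromosome 11, 25 on each side, 1 passed, where 2.79% of all genes did. It was the keratin gene Krt222, with a log2 change of -0.94. Krt222 also passed without maternal T3, with a change of -1.12 (limma adjusted p = 0.000751). The array does not show which allele is expressed.

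After maternal T3, 552 of 19801 genes and unnamed probe sets (2.79%) differed between the genotypes at an adjusted p under 0.05 in limma. Of these, 224 (1.13%) were higher and 328 (1.66%) lower in TRα1+/m T3 than in wild-type T3 hearts, and 494 have a gene symbol. The change was at least 2-fold for 146, of which 55 were higher and 91 lower, and the smallest change that passed was 0.42 on the log2 scale. For 114 of the higher and 172 of the lower genes no heart of one genotype overlapped the other, and this held for 375 (1.89%) of all genes tested. With an unadjusted p under 0.05 there were 2713 genes (13.7%).

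The sequences just upstream of the genes that passed were searched for the motif AGGTCA on both strands. This motif is not particular to thyroid hormone receptors. Of the genes with an upstream window of 250 bases in the RefSeq promoter table (GRCm38.p6), 49 of 242 lower genes (20.2%), 16 of 149 higher genes (10.7%) and 1952 of 14051 genes tested (13.9%) held at least 1 match in any of their windows. The direct repeat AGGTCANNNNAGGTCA was found in 0 of the tested genes' windows, and in 5 of all 32851 windows (0.0152%). The windows of 5 genes that passed, with roles in pacemaking, metabolism, macrophages, growth and matrix, are shown, and they were picked for holding a match. Capitals mark the motif, which reads TGACCT where it lies on the other strand. Hcn2 holds a pair of matches, while Igf2 and Postn also have start sites without one. A match describes letters in a window, not a bound site. The windows lie at chr10:79716384-79716633 (plus strand, Hcn2), chr14:32321769-32322018 (plus, Ogdhl), chr16:48842359-48842608 (plus, Retnla), chr7:142666817-142667066 (minus, Igf2) and chr3:54359017-54359266 (plus, Postn).
Hcn2: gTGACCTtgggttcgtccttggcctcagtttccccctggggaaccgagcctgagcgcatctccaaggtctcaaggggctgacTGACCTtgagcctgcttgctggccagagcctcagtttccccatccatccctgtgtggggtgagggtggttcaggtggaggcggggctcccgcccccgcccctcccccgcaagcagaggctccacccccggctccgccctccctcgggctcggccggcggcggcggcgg
Ogdhl: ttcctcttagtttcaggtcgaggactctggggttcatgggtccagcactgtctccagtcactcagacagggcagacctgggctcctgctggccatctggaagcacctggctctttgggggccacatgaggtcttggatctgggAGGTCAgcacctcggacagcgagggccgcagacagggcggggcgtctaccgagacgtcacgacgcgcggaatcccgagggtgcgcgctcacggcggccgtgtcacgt
Retnla: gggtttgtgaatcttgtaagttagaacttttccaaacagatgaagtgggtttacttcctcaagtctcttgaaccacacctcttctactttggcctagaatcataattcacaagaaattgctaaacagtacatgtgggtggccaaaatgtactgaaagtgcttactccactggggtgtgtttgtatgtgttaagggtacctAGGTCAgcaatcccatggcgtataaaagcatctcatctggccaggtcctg
Igf2: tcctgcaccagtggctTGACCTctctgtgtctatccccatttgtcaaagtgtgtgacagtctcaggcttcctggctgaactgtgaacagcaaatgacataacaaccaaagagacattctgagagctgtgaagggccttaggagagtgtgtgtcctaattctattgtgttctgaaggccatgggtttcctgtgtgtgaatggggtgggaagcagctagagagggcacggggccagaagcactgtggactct
Postn: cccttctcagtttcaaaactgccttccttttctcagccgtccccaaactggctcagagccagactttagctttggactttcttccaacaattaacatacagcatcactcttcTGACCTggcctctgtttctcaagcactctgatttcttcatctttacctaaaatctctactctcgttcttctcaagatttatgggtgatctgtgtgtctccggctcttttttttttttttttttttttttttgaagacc

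Among the genes that passed, Cep128 and Slc16a7 had the largest rises, followed by Kcne1, and Retnla and Nppb the largest falls. Cep128, which encodes a protein of the centriole's appendages, had log2 values of 12.48, 12.56 and 13.1 (lowest, median, highest) in TRα1+/m T3 hearts, against 8.38, 8.94 and 9.24 in wild-type T3 hearts. Slc16a7, a monocarboxylate transporter, had 11.03, 11.16 and 11.48 in TRα1+/m T3 hearts, against 7, 7.84 and 8.53 in wild-type T3 hearts. Neither gene's groups came near each other. Cep128 rose by 3.76 (standard error 0.16, limma adjusted p = 4.69e-15), a 13.6-fold difference, and Slc16a7 by 3.43 (standard error 0.26, adjusted p = 1.65e-09), a 10.8-fold difference. Retnla, a secreted protein of alternatively activated mouse macrophages, had 3.23, 4.52 and 4.96 in TRα1+/m T3 hearts, against 6.13, 6.51 and 8.66 in wild-type T3 hearts. It fell by 2.75 (standard error 0.40, limma adjusted p = 0.000117). The wild-type T3 hearts 14 and 15 were the highest for Retnla, and without the 5 arrays that stand apart the fall was 2.05 (adjusted p = 0.00526).

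**Figure D1:**
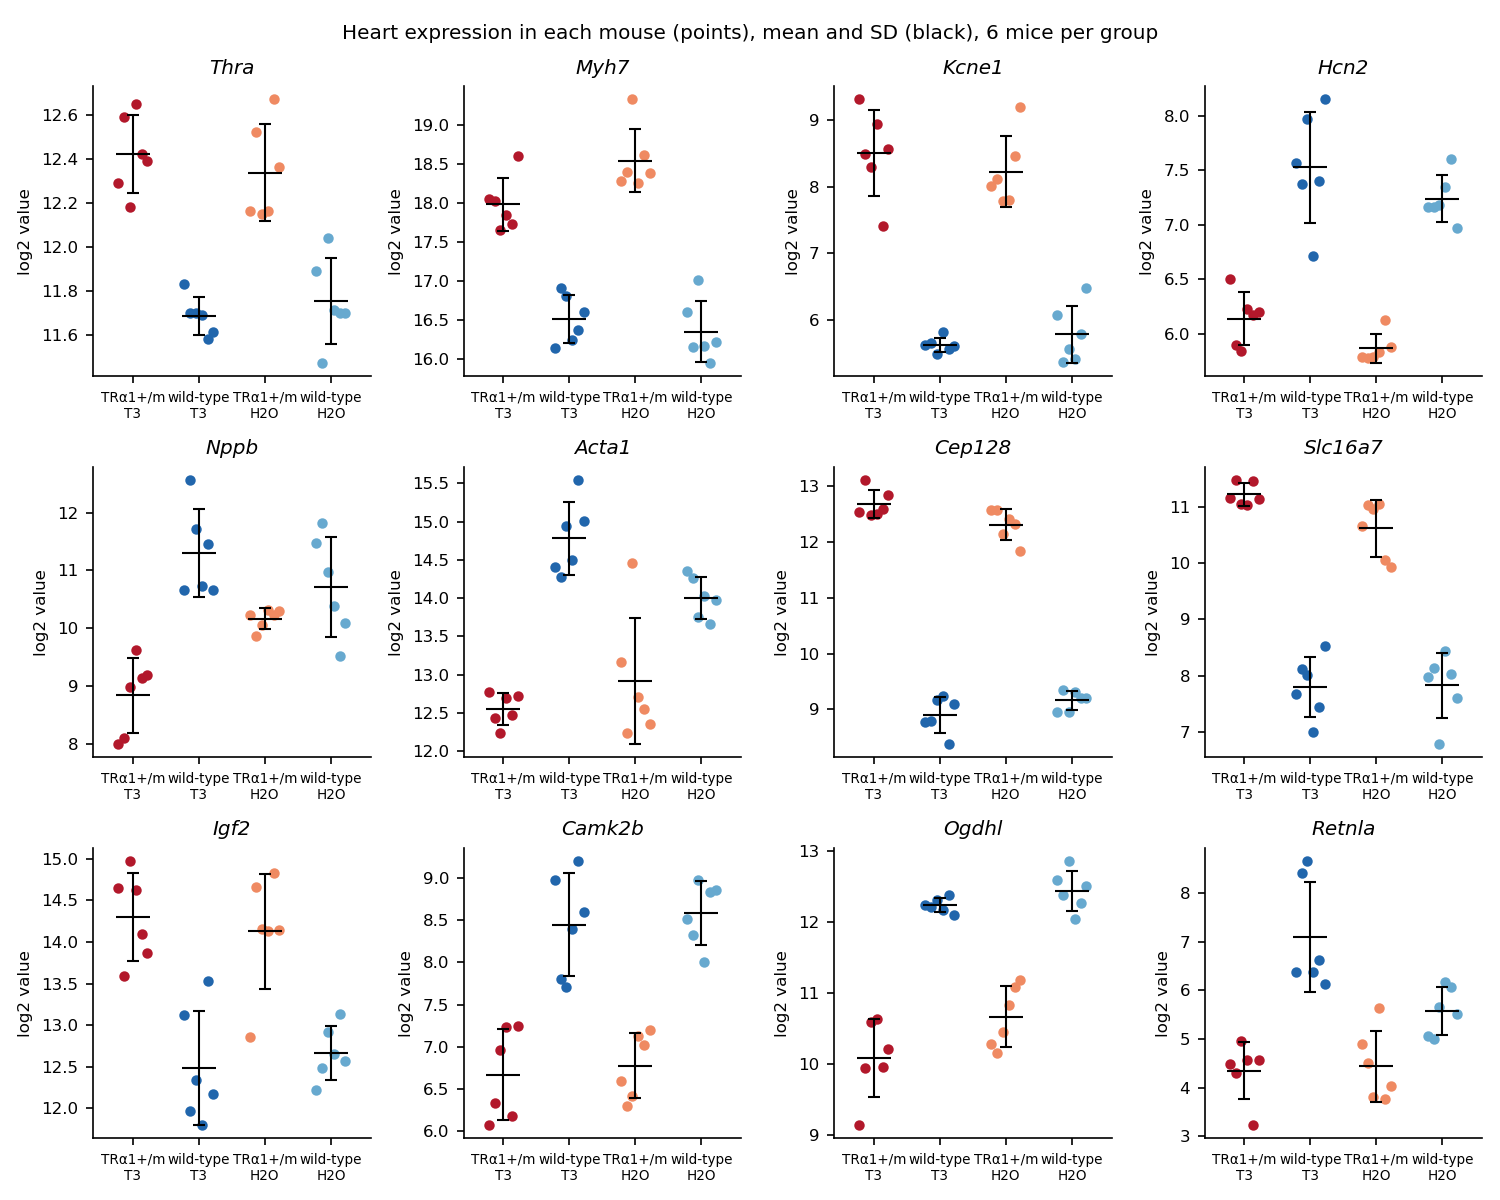
Log2 expression of 12 genes in every mouse (points) with the group mean and SD (black bars). The groups are TRα1+/m T3, wild-type T3, TRα1+/m H2O and wild-type H2O, 6 mice each, where H2O means mothers without T3. For all 12 genes the TRα1+/m T3 and wild-type T3 points do not overlap. Nppb, Acta1, Retnla and Igf2 overlap between the genotypes without T3.

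Among thyroid hormone response genes, 4 of the 30 tested were higher and 3 lower, 23.3% against 2.79% of all genes, and the list's median change was -0.01, as over all genes (-0.01). This list and those below were written with earlier results of these data known, and some share members. Their shares beside that of all genes are therefore descriptions and no test. Myh7, the slow β-myosin heavy chain that T3 represses, had log2 values of 17.66, 17.94 and 18.6 in TRα1+/m T3 hearts, against 16.14, 16.49 and 16.91 in wild-type T3 hearts. All 6 TRα1+/m T3 hearts lay above all wild-type T3 hearts, and Myh7 rose by 1.47 (standard error 0.20, limma adjusted p = 7.44e-05), a 2.77-fold difference. The slow troponin gene Tnni1 rose by 0.88 (adjusted p = 0.0433) from a wild-type T3 mean below the filter of 4. Kcne1, the auxiliary subunit of a delayed rectifier potassium channel, had 7.41, 8.53 and 9.32 in TRα1+/m T3 hearts, against 5.49, 5.61 and 5.82 in wild-type T3 hearts, where the 6 mice were close together. It rose by 2.88 (standard error 0.26, adjusted p = 4.4e-08), a 7.38-fold difference. Myh6, the fast α-myosin, and Atp2a2, the calcium pump, had changes of -0.01 and 0.00 (adjusted p = 0.988 and 0.998). Both lay at 19.53 or more in every heart, close to the top of the scale at 19.93, where little difference can show.

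Of 61 heart rate genes tested, 1 was higher and 7 lower, 13.1% against 2.79% of all genes. Of the 61, 30 had a positive change and the median was -0.05, but 0.03 without the arrays that stand apart. Among label numbers above 30 alone, 3 were lower. Hcn2, a pacemaker channel, had log2 values of 5.84, 6.18 and 6.5 in TRα1+/m T3 hearts, against 6.71, 7.49 and 8.15 in wild-type T3 hearts. The groups did not overlap, and the fall was 1.39 (standard error 0.18, limma adjusted p = 3.4e-05). Its relative Hcn4 had 7.41, 8.11 and 8.58 in TRα1+/m T3 hearts, against 8.15, 8.43 and 8.94 in wild-type T3 hearts, a change of -0.41 that did not pass (adjusted p = 0.347). Camk2b, a calmodulin-dependent kinase, had 6.07, 6.65 and 7.25 in TRα1+/m T3 hearts, against 7.71, 8.5 and 9.2 in wild-type T3 hearts, without overlap. It fell by 1.78 (standard error 0.26, adjusted p = 0.000148). Scn4b, a sodium channel β subunit, fell by 1.36 (adjusted p = 0.000423), and its change was -0.95 (adjusted p = 0.0944) among label numbers above 30 alone. Rgs4, which shortens G protein signals, fell by 0.88 (adjusted p = 0.017), Crhr2, the urocortin receptor, by 0.68 (adjusted p = 0.0113, and 0.109 without the arrays that stand apart) and Hrc, which buffers calcium inside the sarcoplasmic reticulum, by 0.56 (adjusted p = 0.0113). The riser on the list was Tbx18, a transcription factor of the sinus node and epicardium (0.85, adjusted p = 0.00955). The last, Epas1, fell by 0.42 (adjusted p = 0.0441) but missed the threshold in 10 of the 12 fits made without 1 of the mice, with adjusted p up to 0.104.

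Of 49 potassium channel genes tested, Kcne1 rose and Kcnd2 fell, a share of 4.08% against 2.79% of all genes, and the median change was 0.04. At an unadjusted p under 0.05 in limma there were 13 of the 49, a larger share than over all genes (2713 of 19801, 13.7%). Kcnd2, the pore subunit of the transient outward current, had 8.11, 8.87 and 8.93 in TRα1+/m T3 hearts, against 9.27, 9.49 and 9.84 in wild-type T3 hearts. All TRα1+/m T3 hearts were lower, and Kcnd2 fell by 0.77 (standard error 0.18, limma adjusted p = 0.0148). Its change was -0.76 without the arrays that stand apart and did not pass (adjusted p = 0.0763). Kcnh2, the rapid delayed rectifier, had a change of -0.14 (adjusted p = 0.807), Kcna5 of 0.32 (adjusted p = 0.567), Kcnj2, the main inward rectifier, of 0.41 (adjusted p = 0.455), Kcnj14 of -0.34 (adjusted p = 0.424) and Kcnt2 of -0.27 (adjusted p = 0.641). Scn2b, a sodium channel β subunit, Nos1ap, a nitric oxide synthase adaptor, and Pkp2, a desmosome protein, had changes of 0.18, 0.04 and 0.04 that did not pass (adjusted p of 0.656, 0.955 and 0.948). Heart rate and potassium channel genes together gave 2 higher and 8 lower of 110, 9.09% against 2.79% of all genes.

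Ryr2, the ryanodine receptor that releases stored calcium, did not differ beyond its spread. Its log2 values were 15.93, 16.19 and 16.46 in TRα1+/m T3 hearts, against 15.74, 16.08 and 16.15 in wild-type T3 hearts. The ranges overlapped from 15.93 to 16.15, and the change was 0.16 (standard error 0.12, limma adjusted p = 0.618). Of 41 calcium handling genes, 1 was higher and 3 lower, 9.76% against 2.79% of all genes, with a median of 0.00. Beside Camk2b and Hrc, the lower genes held Casq1, the skeletal form of the calcium store protein calsequestrin (a fall of 0.89, adjusted p = 0.00855). Itpr2, an inositol trisphosphate receptor, rose by 0.63 (adjusted p = 0.0332), a call that was lost in 8 of 12 fits without 1 mouse (adjusted p up to 0.0814).

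**Figure D2:**
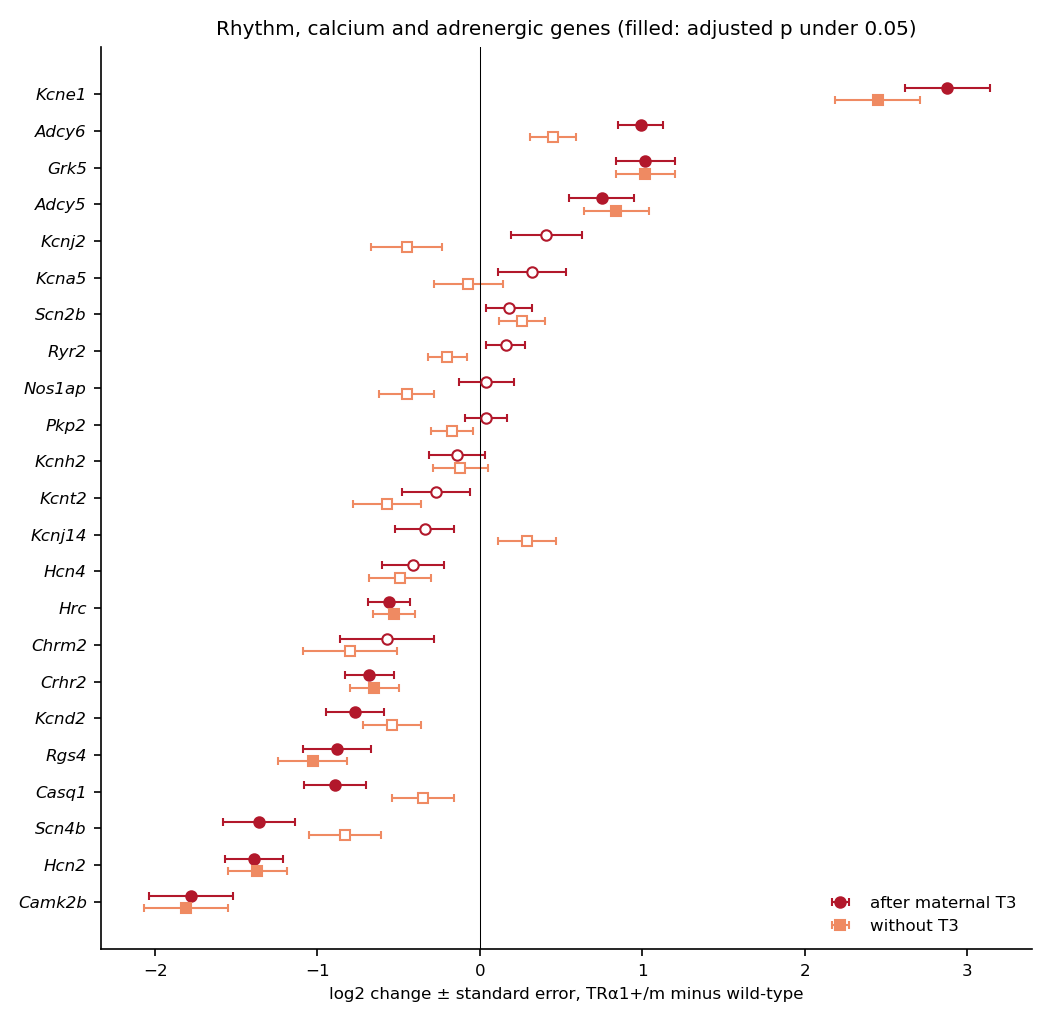
Log2 change of TRα1+/m minus wild-type with its standard error for 23 genes of rhythm, calcium handling and adrenergic signalling, after maternal T3 (circles) and without T3 (squares). Filled symbols passed at an adjusted p under 0.05, from Kcne1 at 2.88 to Camk2b at -1.78 after maternal T3.

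Adcy6, Adcy5 and Grk5 were higher. Adcy6, 1 of the main cyclases of cardiomyocytes, had log2 values of 13.19, 13.64 and 13.82 in TRα1+/m T3 hearts, against 12.29, 12.62 and 12.96 in wild-type T3 hearts. The groups did not overlap, and Adcy6 rose by 0.99 (standard error 0.14, limma adjusted p = 7.44e-05). Grk5, which desensitises β-adrenergic receptors, rose by 1.02 (standard error 0.18, adjusted p = 0.00108). Adcy5 rose by 0.75 (adjusted p = 0.0404), and the call was lost in 7 of 12 fits without 1 mouse (adjusted p up to 0.108). In all, 3 of 20 genes of adrenergic and G protein signalling were higher and 1, Rgs4, lower, 20% against 2.79% of all genes. Chrm2, the muscarinic receptor of the heart, had a change of -0.57 (adjusted p = 0.391).

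The stress-linked peptide Nppb and the skeletal actin Acta1 were much lower in TRα1+/m T3 hearts. Nppb, which encodes B-type natriuretic peptide, had log2 values of 7.99, 9.06 and 9.62 in TRα1+/m T3 hearts, against 10.66, 11.09 and 12.56 in wild-type T3 hearts. Acta1 had 12.24, 12.59 and 12.77 in TRα1+/m T3 hearts, against 14.27, 14.72 and 15.54 in wild-type T3 hearts. For both genes the highest TRα1+/m T3 heart stayed below the lowest wild-type T3 heart. Nppb fell by 2.46 (standard error 0.35, limma adjusted p = 8.56e-05), 5.51-fold, and Acta1 fell by 2.22 (standard error 0.27, adjusted p = 1.34e-05), 4.67-fold. The change of Nppb was -3.61 among label numbers below 20 (adjusted p = 0.00877) and -1.71 among those above 30 (adjusted p = 0.0343). Without the arrays that stand apart it was -1.64 (adjusted p = 0.0131). Atrial natriuretic peptide, Nppa, had 15.62 ± 1.07 in TRα1+/m T3 and 16.48 ± 1.17 in wild-type T3 hearts (SD, n = 6 each) and did not pass (adjusted p = 0.529).

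The other members of the hypertrophy and fetal gene list moved both ways. Of the whole list of 23, 2 were higher and 5 lower, 30.4% against 2.79% of all genes, and the median change was -0.25. The counts were 2 higher and 2 lower without the arrays that stand apart. Igf2, a fetal growth factor, had log2 values of 13.59, 14.36 and 14.97 in TRα1+/m T3 hearts, against 11.8, 12.26 and 13.53 in wild-type T3 hearts, with the lowest TRα1+/m T3 heart just above the highest wild-type T3 heart. It rose by 1.81 (standard error 0.30, limma adjusted p = 0.000616), whereas Rcan1, a calcineurin regulator, fell by 0.94 (adjusted p = 0.0183) and Ankrd1, a titin-bound stress protein, by 0.80 (adjusted p = 0.0404). Outside the list, Plagl1, a zinc finger transcription factor, rose by 1.53 (adjusted p = 0.00263), Mest, known from embryonic mesoderm, by 1.40 (adjusted p = 0.00291) and Fgf7, a fibroblast growth factor, by 1.36 (adjusted p = 0.00261).

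Of 45 sarcomere genes, 2 were higher, Myh7 and Tnni1, and 8 lower, 22.2% against 2.79% of all genes, with a median of -0.05. Among label numbers above 30 alone, 1 was higher and 4 lower. Myoz2, a Z-disc protein that binds calcineurin, had log2 values of 18.09, 18.38 and 18.77 in TRα1+/m T3 hearts, against 18.9, 19.1 and 19.24 in wild-type T3 hearts. The groups did not overlap, and the fall was 0.66 (standard error 0.13, limma adjusted p = 0.00308). Lmod3, a nucleator of thin filaments, fell by 0.89 (adjusted p = 0.00381), and its cardiac relative Lmod2 by 0.48 (adjusted p = 0.0497). Xirp2, an actin-binding protein of the intercalated disc, fell by 0.70 (adjusted p = 0.0156, and 0.0795 without the arrays that stand apart), Myl1, an essential light chain of fast muscle, by 1.35 (adjusted p = 0.0218) and Myl3, the ventricular essential light chain, by 0.54 (adjusted p = 0.0299).

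Of 41 matrix genes, 2 were higher and 1 lower, 7.32% against 2.79% of all genes, 32 had a positive change and the median was 0.32. Without the arrays that stand apart the median was 0.16, with 3 higher and 0 lower in limma, and among label numbers above 30 alone it was 0.19. Postn, the matricellular protein of activated fibroblasts, had log2 values of 10.66, 10.88 and 12.94 in TRα1+/m T3 hearts, against 8.93, 9.82 and 10.05 in wild-type T3 hearts. Heart 16 stood far above the other TRα1+/m T3 hearts, and the remaining ones were still above all wild-type T3 hearts. Postn rose by 1.58 (standard error 0.31, limma adjusted p = 0.00297), and by 1.21 without the arrays that stand apart (adjusted p = 0.0201). Mmp2, a gelatinase, rose by 0.90 (adjusted p = 0.00074) and Vim, the intermediate filament of mesenchymal cells, by 0.86 (adjusted p = 0.00774, and 0.0502 without the arrays that stand apart). Col4a2, of basement membranes, fell by 0.55 (adjusted p = 0.0352), a call lost in 8 of 12 fits without 1 mouse (adjusted p up to 0.0948). The fibroblast collagens Col1a1 and Col1a2 had 10.94 ± 0.79 and 11.31 ± 0.74 in TRα1+/m T3 hearts, against 10.22 ± 0.50 and 10.51 ± 0.73 in wild-type T3 hearts (SD, n = 6 each), and did not pass (adjusted p = 0.183 and 0.254). The 13 fibroblast genes had a median change of 0.43, which was 0.25 without the arrays that stand apart and 0.27 among label numbers above 30 alone, and their mean level per heart was 11.02 to 12.13 in TRα1+/m T3 and 10.76 to 11.48 in wild-type T3 hearts. The part of fibroblast number in these rises was not tested.

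All 11 epicardial and mesothelial genes tested had positive changes over the 12 hearts, and 3 passed (27.3%, against 1.13% of all genes that were higher). Msln, mesothelin, had log2 values of 6.06, 6.37 and 6.92 in TRα1+/m T3 hearts, against 4.92, 5.41 and 5.76 in wild-type T3 hearts. The groups did not overlap, and Msln rose by 1.10 (standard error 0.21, limma adjusted p = 0.00292). Tbx18 was the second, and Lrrn4, a mesothelial membrane protein, rose by 0.95 (adjusted p = 0.0312), a call lost in 7 of 12 fits without 1 mouse (adjusted p up to 0.0856). The list's mean level per heart was 6.28 to 7.14 in TRα1+/m T3 and 5.91 to 6.65 in wild-type T3 hearts, and the median change was 0.44. Without the arrays that stand apart the median was 0.29, 10 of 11 changes were positive and 2 genes passed. How much surface tissue each heart held was not tested.

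Of 31 interferon response genes, 1 passed and was lower (3.23% against 2.79% of all genes), 3 of 31 had a positive change and the median was -0.25. Of 29 immune cell genes, 2 were lower (6.9%), 10 had a positive change and the median was -0.14, or -0.30 without the arrays that stand apart. Cxcl9, an interferon-induced chemokine, had log2 values of 5.67, 6.51 and 7.42 in TRα1+/m T3 hearts, against 7.82, 8.37 and 10.07 in wild-type T3 hearts. No heart overlapped, and Cxcl9 fell by 2.01 (standard error 0.30, limma adjusted p = 0.000221). Cxcl14, another chemokine, fell by 1.75 (adjusted p = 5.68e-06), and Cbr2, a carbonyl reductase, by 1.96 (adjusted p = 0.000748). The immune cell genes that passed were the class II genes H2-Eb1 (-1.17, adjusted p = 0.00501) and H2-Aa (-1.10, adjusted p = 0.0295). The call of H2-Aa was lost without wild-type T3 mouse 46 or without TRα1+/m T3 mouse 49, 50 or 51 (adjusted p up to 0.0791). The interferon response gene that passed was Gbp3, of a guanylate-binding protein (-1.08, adjusted p = 0.00258). The mean level of the immune cell genes was 6.75 to 7.94 in TRα1+/m T3 and 7.08 to 7.75 in wild-type T3 hearts, so the groups overlapped there. The general leucocyte marker Ptprc had 8.91 ± 0.92 in TRα1+/m T3 and 9.46 ± 0.55 in wild-type T3 hearts (SD, n = 6 each, adjusted p = 0.492).

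Of 27 endothelial genes, 2 fell in limma, 7.41% against 1.66% of all genes that were lower. Aqp1, a water channel of capillaries, had log2 values of 12.35, 12.8 and 13.38 in TRα1+/m T3 hearts, against 13.69, 14.05 and 14.37 in wild-type T3 hearts. The groups did not overlap, and Aqp1 fell by 1.30 (standard error 0.21, limma adjusted p = 0.000373). Vwf, von Willebrand factor, fell by 0.90 (adjusted p = 0.00647). The pan-endothelial markers Pecam1, Cdh5 and Kdr had means of 12.57, 15.13 and 15.14 in TRα1+/m T3 hearts, against 12.45, 15.21 and 15.23 in wild-type T3 hearts, and none of these 3 passed (adjusted p of 0.825, 0.909 and 0.903). Tie1 and Emcn, also endothelial markers, had lower means of 10.33 and 11.94 in TRα1+/m T3 hearts, against 10.74 and 12.14 in wild-type T3 hearts. Neither passed in limma (adjusted p of 0.198 and 0.619).

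Single enzymes and carriers of energy metabolism changed strongly. Ogdhl, a tissue-restricted form of the 2-oxoglutarate dehydrogenase E1 subunit, had log2 values of 9.14, 10.08 and 10.64 in TRα1+/m T3 hearts, against 12.1, 12.23 and 12.38 in wild-type T3 hearts. It fell by 2.15 (standard error 0.21, limma adjusted p = 3.48e-07), 4.44-fold. Fndc5, the irisin precursor, had 12.07, 12.26 and 12.5 in TRα1+/m T3 hearts, against 13.56, 13.89 and 13.96 in wild-type T3 hearts. It fell by 1.57 (standard error 0.12, adjusted p = 1.65e-09), and Letm1, a cation exchanger of the inner mitochondrial membrane, fell by 1.44 (adjusted p = 8.78e-07). These 3 genes had no overlapping hearts. Of 76 oxidative phosphorylation genes, 0 were called in limma, against 2.79% of all genes. At an unadjusted p under 0.05 there was 1, against 13.7% of all genes. Of the 76, 12 had a positive change and the median was -0.13. The 0 depended on the fit, with 2 lower among label numbers above 30 alone and 4 lower without the arrays that stand apart.

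Of 45 fatty acid and lipid genes, 3 rose in limma, 6.67% against 1.13% of all genes that were higher, with a median change of 0.15. Slc27a1, a fatty acid transporter, had log2 values of 15.08, 15.24 and 15.83 in TRα1+/m T3 hearts, against 14.4, 14.56 and 14.73 in wild-type T3 hearts. All TRα1+/m T3 hearts were above all wild-type T3 hearts, and the rise was 0.76 (standard error 0.15, limma adjusted p = 0.0024). Acot1, a cytosolic acyl-CoA thioesterase, rose by 0.98 (adjusted p = 0.00768), and Lipe, hormone-sensitive lipase, by 1.02 (adjusted p = 0.0132). Lipe is also an adipocyte gene, the 1 of 13 that passed. The adipocyte markers Adipoq and Plin1 ran from 4.99 to 10.87 and from 3.99 to 9.65 in TRα1+/m T3 hearts, against 4.45 to 9.34 and 3.5 to 8.24 in wild-type T3 hearts, and Ucp1, the uncoupling protein of brown fat, had a mean of 8.24 in TRα1+/m T3 and 5.04 in wild-type T3 hearts that did not pass (adjusted p = 0.325). The 13 adipocyte genes had a median change of 0.56, with 10 positive. It was 1.54 without the arrays that stand apart and 2.10 among label numbers above 30 alone, with 12 positive in each. Their mean level per heart ran from 6.75 to 11.21 in TRα1+/m T3 and from 6.85 to 9.09 in wild-type T3 hearts. The part of fat tissue in the rises of Slc27a1, Acot1 and Lipe was not tested. Without the arrays that stand apart, Lipe had a change of 1.10 (adjusted p = 0.052). In glycolysis and hypoxia, Hk1, the first enzyme of glycolysis, rose by 0.48 (adjusted p = 0.0274) and Egln3, an oxygen-sensing prolyl hydroxylase, fell by 1.37 (adjusted p = 0.0395). Both calls were lost in some fits without 1 mouse, 5 of 12 for Hk1 (adjusted p up to 0.0742) and 6 of 12 for Egln3 (adjusted p up to 0.104).

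**Figure D3:**
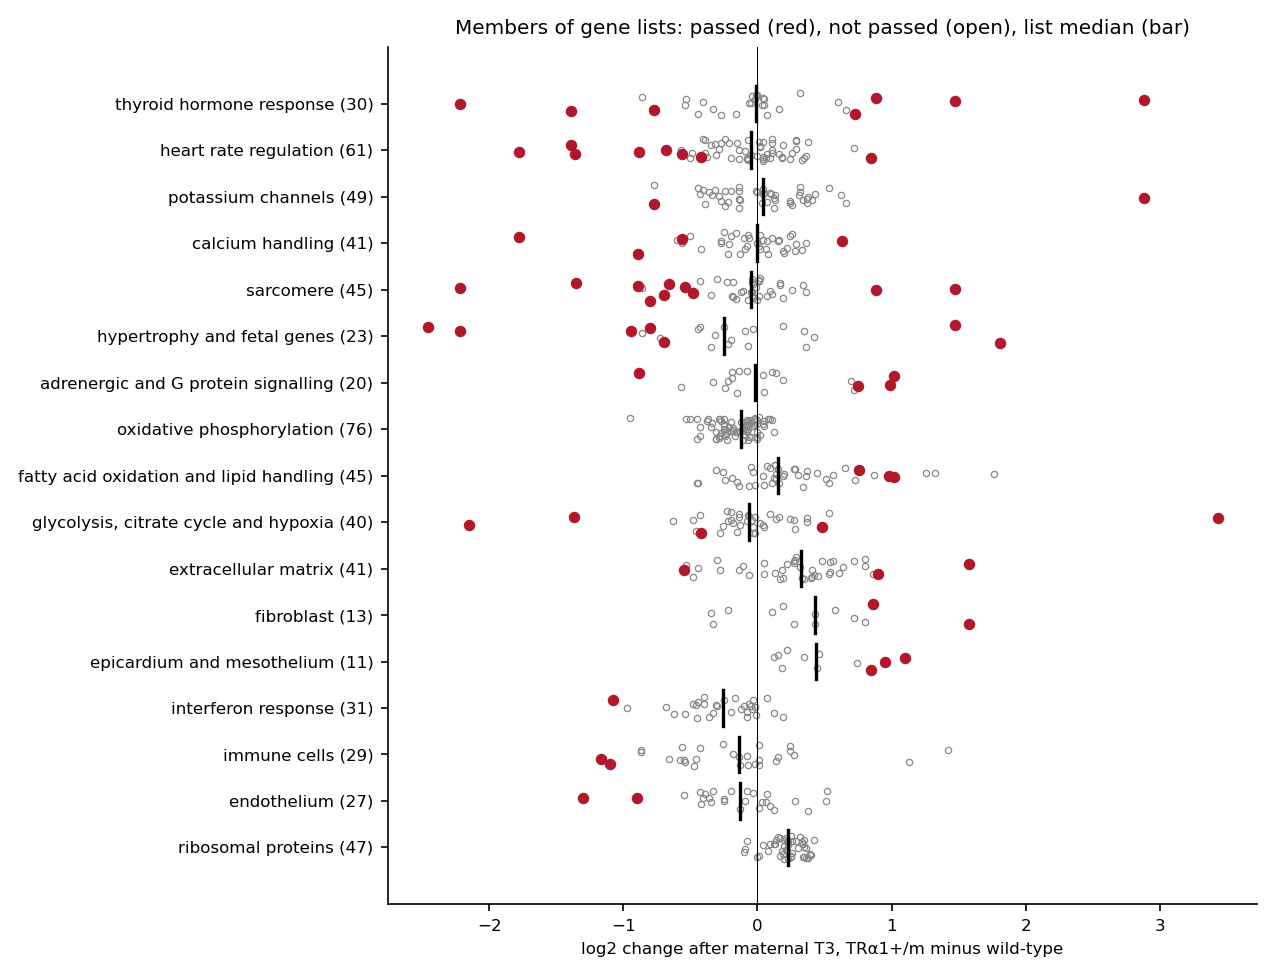
Log2 change after maternal T3, TRα1+/m minus wild-type, for the members of 17 gene lists, with the number of genes tested in brackets. Red points passed at an adjusted p under 0.05, open points did not, and the black bar is the list median, which runs from -0.25 for the interferon genes and the hypertrophy and fetal genes to 0.44 for the epicardial genes.

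Several strong changes fell outside these lists. Lrtm1, a leucine-rich repeat membrane protein, had log2 values of 12.55, 14.22 and 14.76 in TRα1+/m T3 hearts, against 15.52, 16.19 and 16.32 in wild-type T3 hearts, and fell by 2.05 (standard error 0.25, limma adjusted p = 1.54e-05). Phlda1, a pleckstrin homology-like domain protein, had 6.62, 6.94 and 7.49 in TRα1+/m T3 hearts, against 8.4, 8.89 and 8.98 in wild-type T3 hearts, and fell by 1.77 (standard error 0.23, adjusted p = 2.65e-05). Neither gene's groups overlapped. Plaat1, a phospholipase and acyltransferase, fell by 1.92 (adjusted p = 1.34e-05), Tnfaip2, a protein induced by tumour necrosis factor, by 1.70 (adjusted p = 1.34e-05), Klhdc8a by 1.62 (adjusted p = 4.3e-05) and Cilp2, a cartilage matrix protein, by 1.41 (adjusted p = 0.00227). Hsph1, a large heat shock protein, fell by 1.25 (adjusted p = 0.00325). Ubxn10, a protein of cilia, rose by 1.92 (adjusted p = 7.14e-05), Lad1, a basement membrane anchor, by 1.82 (adjusted p = 7.72e-05), Lgals4, a galectin, by 1.76 (adjusted p = 0.00534), Fstl4 by 1.56 (adjusted p = 0.000552) and Angptl1, a secreted angiopoietin-like protein, by 1.51 (adjusted p = 0.000177). Armc2, Pirt, a regulator of sensory ion channels, and Col6a6, a collagen, rose by 1.42, 1.25 and 1.23 (adjusted p of 1.18e-05, 2.87e-05 and 2.72e-05). In the renin-angiotensin and natriuretic system, Corin, the protease that activates natriuretic peptides, rose by 0.58 (adjusted p = 0.0489) and Ace fell by 0.59 (adjusted p = 0.0493), and both calls were lost in most fits without 1 mouse, 8 and 10 of 12 (adjusted p up to 0.129 and 0.118).

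Most of the genotype difference without maternal T3 was also present after it. In offspring of mothers without T3, 321 genes (1.62%) differed, 112 higher (0.566%) and 209 lower (1.06%) in TRα1+/m. Of these, 208 also passed after maternal T3, 207 of them in the same direction, 70 higher and 137 lower. That is 64.8% of the list without T3 and 37.7% of the list after maternal T3, and no array is shared between both comparisons, only the estimate of the spread. Of the 321 genes, 315 (98.1%) kept their sign after maternal T3, against 61.8% of all genes. Their median change was 0.80 in size after maternal T3 and 0.88 without. For the 552 genes that passed after maternal T3 the median size was 0.82 there and 0.56 without. Each list was chosen by its own comparison, which favours larger changes there. Across genes, which are not independent replicates, the changes of the 321 correlated at r = 0.94 and those of all genes at r = 0.52. Cep128, Slc16a7, Kcne1, Fndc5, Ogdhl, Camk2b, Hcn2, Lrtm1 and Aqp1 passed in both comparisons. For Hcn2 the change was -1.39 after maternal T3 and -1.37 without, and for Camk2b -1.78 and -1.81.

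**Figure D4:**
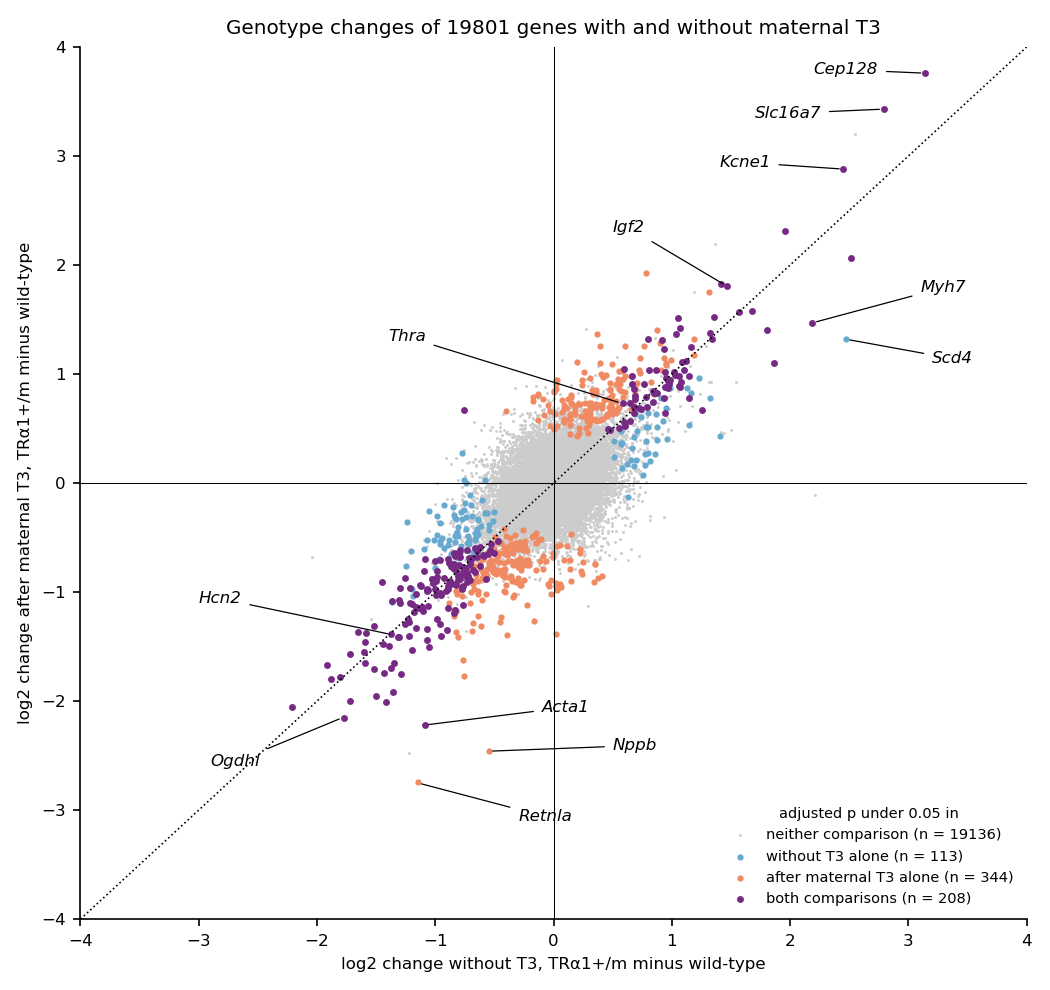
Log2 change by genotype after maternal T3 (vertical) against that without T3 (horizontal) for 19801 genes. Colours show in which comparison the adjusted p was under 0.05, and the dotted line marks equal changes. Most of the 208 genes that passed in both lie near the line, whereas Nppb, Retnla and Acta1 lie below it.

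No gene passed the limma test of the difference between the 2 genotype changes (0% called). With an unadjusted p under 0.05 there were 830 genes (4.19%), and the smallest adjusted p was 0.127. The 344 genes that passed after maternal T3 alone, 153 higher and 191 lower, are therefore not shown to be particular to it, and 308 of them had the same sign without T3. For Nppb the contrast was wide. Without maternal T3 its log2 values were 9.86 to 10.32 in TRα1+/m and 9.52 to 11.82 in wild-type hearts, with overlap and a change of -0.55 (adjusted p = 0.607). The difference between its 2 changes was -1.91 (unadjusted p = 6e-04, adjusted p = 0.848). Acta1 had a difference of -1.13 (unadjusted p = 0.0062), Retnla of -1.60 (unadjusted p = 0.00837), Phlda1 of -1.01 (unadjusted p = 0.00382), Klhdc8a of -0.86 (unadjusted p = 0.00874) and Ubxn10 of 1.15 (unadjusted p = 0.00502), and Adcy6 of 0.54 (unadjusted p = 0.00994). Myh7 went the other way, with a change of 1.47 after maternal T3 and 2.19 without, a difference of -0.72 (unadjusted p = 0.0196). None of these held after adjustment.

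In the fit without a block, 113 genes passed without maternal T3 and not after it. Of these, 108 kept the sign after maternal T3, and 24 had an unadjusted p under 0.05 for the difference. Scd4, a fatty acid desaturase, had log2 values of 9.7, 11.74 and 12.71 in TRα1+/m T3 hearts, against 9.12, 10.13 and 10.91 in wild-type T3 hearts. The ranges overlapped, and the change was 1.32 (limma adjusted p = 0.0615), against 2.47 without T3 (difference -1.15, unadjusted p = 0.043). Ecrg4, a secreted peptide precursor, had a change of 0.43 after maternal T3 (adjusted p = 0.45) and 1.41 without (difference -0.98, unadjusted p = 0.00665). Rsad2, an interferon-induced antiviral gene, had -0.97 after maternal T3 (adjusted p = 0.0631) and -1.20 without, and Kcna1, a potassium channel, had -0.77 (adjusted p = 0.0559) and -1.24. With the label number range as a block, Scd4, Rsad2 and Kcna1 did pass after maternal T3 (adjusted p of 0.0463, 0.0118 and 0.039), as Scd4 also did without the arrays that stand apart (0.0294). For the heart rate genes Ryr2, Kcnj2 and Nos1ap, which passed in neither comparison, the changes were 0.16, 0.41 and 0.04 after maternal T3 and -0.20, -0.45 and -0.45 without. The differences between these changes had unadjusted p of 0.0415, 0.0118 and 0.0492 and did not pass after adjustment.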

How the data were processed

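RNA of 24 whole hearts was hybridised to Clariom S mouse arrays. The authors turned the scans into RMA values in Transcriptome Analysis Console 4.0.1, per the submitters' notes, and deposited them as log2 values (1.78 to 19.93). Precision is set by how many arrays there are, since read depth does not apply. A genome build for the array is not given in the sources used here. Of 28846 probe sets, 6640 controls were left out, and 2634 had no symbol. Symbols of the array annotation were matched by gene number to RefSeq (GRCm38.p6), which matched all 19572. For 55 symbols with several probe sets the one with the highest mean was kept. Genes needed a group mean over 4 in 1 or more of the 4 groups, which left 19801, and 19329 had it in a T3 group.

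All 24 arrays were fitted as 4 groups with limma 3.58.1 in R 4.3.3 (lmFit, eBayes) with Benjamini-Hochberg adjustment over all genes tested. Changes are TRα1+/m minus wild-type. The filter follows the study's methods, and a two-factor test with two-stage adjustment, which the methods apply to heart rate and potassium channel genes, was run here over all genes as an alternative. The script was tested on simulated data. Members and gene lists were chosen with earlier results of these data known. Genes were named by a rule (genes named for heart expression in the study, the 12 largest rises and falls, the 10 lowest p in each direction, up to 5 members per list, and the leading genes of each comparison alone). Tnni1, Myl1, Myl3, Lmod2, Ankrd1, Rcan1, Krt222 and the marker genes were added after their values were seen, as were the chromosome X genes. Adrb1 was not analysed here. Alternatives were other filters, array weights, trend and robust moderation, the label number range, single pairs of groups, median centring, a 1.5-fold minimum, and leaving out mice or the 5 arrays that stand apart.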

Additional observations from a re-analysis of the deposited data

Results flagged for a closer look

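Among the named genes, 204 groups of 6 mice were examined for 1 mouse far from the others, and 14 had one, where chance gives about 1 in 20 (10.2). In TRα1+/m T3 hearts, mouse 16 was far above the others for Postn (12.94, the next 11.35), Vim (16.51, the next 15.66) and Adcy5 (10.9, the next 10.22). TRα1+/m T3 mouse 17 was far below for Tbx18 (7.55, the next 8.09) and Vmn1r228, a vomeronasal receptor gene (5.17, the next 5.48). Mouse 51 was low for Kcnd2 (8.11, the next 8.76) and high for the unnamed probe set TC1000002586.mm.2 (13.14, the next 12.79), mouse 49 low for Crhr2 (9.65, the next 9.92) and mouse 50 low for Akap14, an anchor of protein kinase A (3.86, the next 4.44).

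In wild-type T3 hearts, mouse 15 was far above the others for the immune genes Cxcl9 (10.07, the next 8.57), H2-Eb1 (10.15, the next 8.77) and H2-Aa (10.78, the next 9.13). Wild-type T3 mouse 14 was far below for Epas1 (14.53, the next 14.75) and Corin (14.91, the next 15.59). Mice 14, 15, 16 and 17 are the T3-exposed mice whose arrays stood apart on the first principal component.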

How the results depend on the processing

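The 552 genes after maternal T3 became 510 to 646 under the filters, trend and robust moderation, array weights (530), the label number range as a block (646), median centring (520) and the two-factor test over all genes (575), and 492 with a change of at least 1.5-fold. The count fell to 273 (95 higher, 178 lower, 209 of them among the 552) with label numbers above 30 alone and to 11 (4 higher, 7 lower) with those below 20 alone, where fewer mice were fitted, and to 274 (99 higher, 175 lower) with the 2 groups alone. Without the arrays that stand apart it was 445 (142 higher). Of the named genes, 20 lost the call above 30 alone and 11 without the arrays that stand apart. Without T3 the 321 became 159, 3, 557 with array weights and 533 without the arrays that stand apart, and the 207 shared genes became 99 and 2 in the label number ranges above 30 and below 20. Leaving out 1 mouse gave 399 to 538 genes after maternal T3 (160 to 203 higher, 239 to 338 lower), 233 to 289 without T3, 170 to 220 in both, and 0 or 1 for the difference between the changes, which also had 1 with array weights and could not be fitted with the 2 groups alone. Of 76 named genes that passed, 63 did so in every such fit.
Changes near 0 turned sign: Myh6 (0.00 with array weights, -0.02 to 0.02 without 1 mouse), Atp2a2 (0.00), Nos1ap (-0.01 with the block, -0.32 below 20, -0.04 to 0.19 without 1 mouse), Pkp2 (-0.13 above 30, -0.08 without the arrays apart, -0.03 to 0.09 without 1 mouse), Kcnt2 (0.09 below 20) and Kcnj14 (0.16 below 20). No paired analysis was possible because the groups share no label numbers.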

Other observations

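Genes of chromosome X that differed after maternal T3 were mostly higher in TRα1+/m hearts. Of 681 tested, 20 passed as higher and 2 as lower, 3.23% against 2.79% of all genes. Over all genes tested, 224 were higher (1.13%) and 328 lower (1.66%). On chromosome X, 374 of the 681 had a positive change, against 9721 of 19801 over all genes, and the median change was 0.04. Maged2, a melanoma antigen family member, rose by 1.36, the retrotransposon-derived Rtl3 by 1.33, Itm2a, a membrane protein, by 1.12 and Slitrk4, a neuronal membrane protein, by 1.11. The armadillo repeat genes Armcx2, Armcx3, Armcx4 and Armcx6 rose by 0.85, 0.79, 0.82 and 0.69. Gpc3, a heparan sulphate proteoglycan that binds growth factors, rose by 0.78 (limma adjusted p = 0.0201). The 2 lower genes were Igsf1 (-1.03), an immunoglobulin superfamily protein, and Amot (-0.87), an angiomotin. Without maternal T3, 9 genes of chromosome X were higher and 4 lower, against 112 (0.566%) and 209 (1.06%) over all genes. Of the 22, 19 had the same sign without maternal T3.

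The 17 circadian clock, 16 DNA methylation, 15 unfolded protein response and 16 cell cycle genes tested had 0 calls in limma after maternal T3 (2, 1, 2 and 0 at an unadjusted p under 0.05), with medians of 0.07, 0.02, 0.06 and -0.07. Over all genes the shares were 2.79% called and 13.7% at an unadjusted p under 0.05. At 2.79%, 0 calls in lists this short say little about their genes. The 47 ribosomal protein genes also had 0 calls (2 at an unadjusted p under 0.05), 43 had a positive change and the median was 0.23, which was 0.16, with 34 positive, without the arrays that stand apart.

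The probe set TC0100001477.mm.2, without a gene symbol, had the lowest p for the difference between the genotype changes, but it lay near the filter of 4 in all groups. Its means were 4.61 in TRα1+/m T3 and 3.93 in wild-type T3 hearts, and 3.68 in TRα1+/m and 4.44 in wild-type hearts without T3, so in each comparison it was above the filter in the higher group alone. Its change was 0.67 after maternal T3 and -0.76 without (difference 1.43, adjusted p = 0.127), and it was the 1 that passed in both comparisons with opposite signs. The call after maternal T3 was lost in 10 of 12 fits without 1 mouse (adjusted p up to 0.11). Slc7a6, an amino acid transporter, followed with 0.56 after maternal T3 and -0.67 without (difference 1.23, unadjusted p = 0.000157).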
